A study of Equus asinus with 3 samples.

Results

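SPA17, CABYR and ROPN1L encode sperm tail proteins that share a short anchoring domain, the RIIa domain, named after the regulatory subunit of protein kinase A in which it was first described. The 3 genes were taken by name in every library of a single-cell RNA study of the donkey (Equus asinus), and each was found once among 34267 features in all. SPA17 and ROPN1L carried these symbols in the files, and CABYR was listed as LOC106822894, which the RefSeq gene table names CABYR. There was 1 library each of testis, epididymis caput (the head of the duct in which sperm mature) and epididymis corpus (its body). The tissue came from 3 sexually mature males, none with a treatment or genotype in the labels, and the sources used here do not say which animals entered which library. All 3 tissues were held in a storage solution, within 48 h per the labels, and digested at 37 °C for 15 min in 0.2% collagenase IV with DNase I, before loading on droplets.

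Each captured transcript gets a unique molecular identifier (UMI) so that copies of it are counted once, and levels are given as CPM, the UMIs of a gene per 1000000 UMIs of the summed cells. CPM is not divided by gene length, so levels of different genes are not ranked against each other. With 1 library per group there is no replicate, no test and no p-value. Every interval is a 95% interval for counting error, and a difference between libraries or classes has no replicate check.

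The RIIa domain pairs up with itself and grips a helix in A-kinase anchoring proteins (AKAPs), which hold signalling enzymes in place. In the sperm tail the main anchors are AKAP3 and AKAP4, which build the fibrous sheath, a stiff cover around the main part of the tail. SPA17, first described as an autoantigen of rabbit sperm, has a calmodulin-binding motif beside its anchoring domain. CABYR is a calcium-binding fibrous sheath protein that in human sperm is phosphorylated on tyrosine during capacitation, the maturation sperm complete in the female tract. ROPN1L binds AKAPs in the fibrous sheath, and in the green alga Chlamydomonas proteins with the same domain sit in radial spokes, the arms that regulate tail beating. In mice, loss of ROPN1L together with its paralog ROPN1 thins the fibrous sheath and abolishes forward swimming.

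Depth differed widely, with 47686179 UMIs over 8610 barcodes for testis, 13203203 over 9478 for caput and 4142512 over 9611 for corpus, and with medians of 4696.5, 1145 and 371 UMIs per kept cell. Each library was clustered on its own and clusters were named from markers, with the 3 genes and their pathway lists left out of the clustering. The labels call the testis cells germ cells and both epididymal libraries somatic cells. In testis, 7912 of 8528 kept cells (92.8%) were germ-like by their markers, and in caput 281 of 9477 (2.97%) were germ-like too, against the label. In corpus no cluster was germ-like (0 of 9609 cells), which sets no limit on single germ cells inside other clusters. A cluster led by very long genes, which was given no cell type, took 49.5% of caput and 63.6% of corpus cells. Barcodes in the files are running numbers and not sequences, so cells shared between libraries could not be counted.

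To follow the genes through sperm formation, 12 germ-like testis clusters were put in order by a marker index, the mean log2 level of elongating spermatid markers minus that of late spermatocyte markers. Positions 1 to 3 were late spermatocyte-like (cells in meiosis), 4 to 6 germ-like without a stage name, 7 to 9 round spermatid-like (after meiosis) and 10 to 12 elongating spermatid-like (cells that form the tail and condense the nucleus). Position 1 was named from 8 of 17 late spermatocyte markers and positions 2 and 3 from 5 of 17 each. The size of the late spermatocyte-like class changed with the settings. Of the germ-like cells, 65 in a cluster of mixed stages could not be placed.

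SPA17 stood at a high and nearly constant level through these stages. Its level was 7987 CPM in late spermatocyte-like cells (7943 to 8031), 7856 in the germ-like cells without a stage name, 7586 in round spermatid-like cells (7533 to 7638) and 6988 in elongating spermatid-like cells (6899 to 7078). By position it was highest at position 1, with 8489 CPM, and lowest at position 12, with 6545 CPM. The decline was small and uneven: of 11 steps between neighbouring positions, 7 went down and 1 went up beyond counting error, and position 12 stood at 0.771 of position 1 (0.740 to 0.803). Steps that did not exceed counting error were those between positions 5 and 6, 7 and 8, and 11 and 12.

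CABYR rose slowly with stage. Its level was 2320 CPM in late spermatocyte-like cells (2297 to 2344), 2546 in the germ-like cells without a stage name, 2690 in round spermatid-like cells (2658 to 2721) and 2863 in elongating spermatid-like cells (2806 to 2921). By position it was lowest at position 1, with 2236 CPM, and highest at position 12, with 3798 CPM. Of its 11 steps, 7 went up beyond counting error and 0 went down, and position 12 stood at 1.70 times position 1 (1.61 to 1.80). Most of this rise lay in the last step, where position 12 stood at 1.44 times position 11 (1.33 to 1.55). That position holds 101 cells, and without it the range over positions was 1.23-fold.

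ROPN1L was the flattest of the 3. Its level was 1469 CPM in late spermatocyte-like cells (1450 to 1488), 1604 in the germ-like cells without a stage name, 1613 in round spermatid-like cells (1588 to 1637) and 1657 in elongating spermatid-like cells (1614 to 1701). By position it was lowest at position 1, with 1433 CPM, and highest at position 11, with 1719 CPM. Of its 11 steps, 2 went up and 2 went down beyond counting error, and from position 4 to position 11 no step did. Position 12, at 1535 CPM, stood at 1.07 times position 1 (0.983 to 1.17), which does not exceed counting error.

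**Figure D1:**
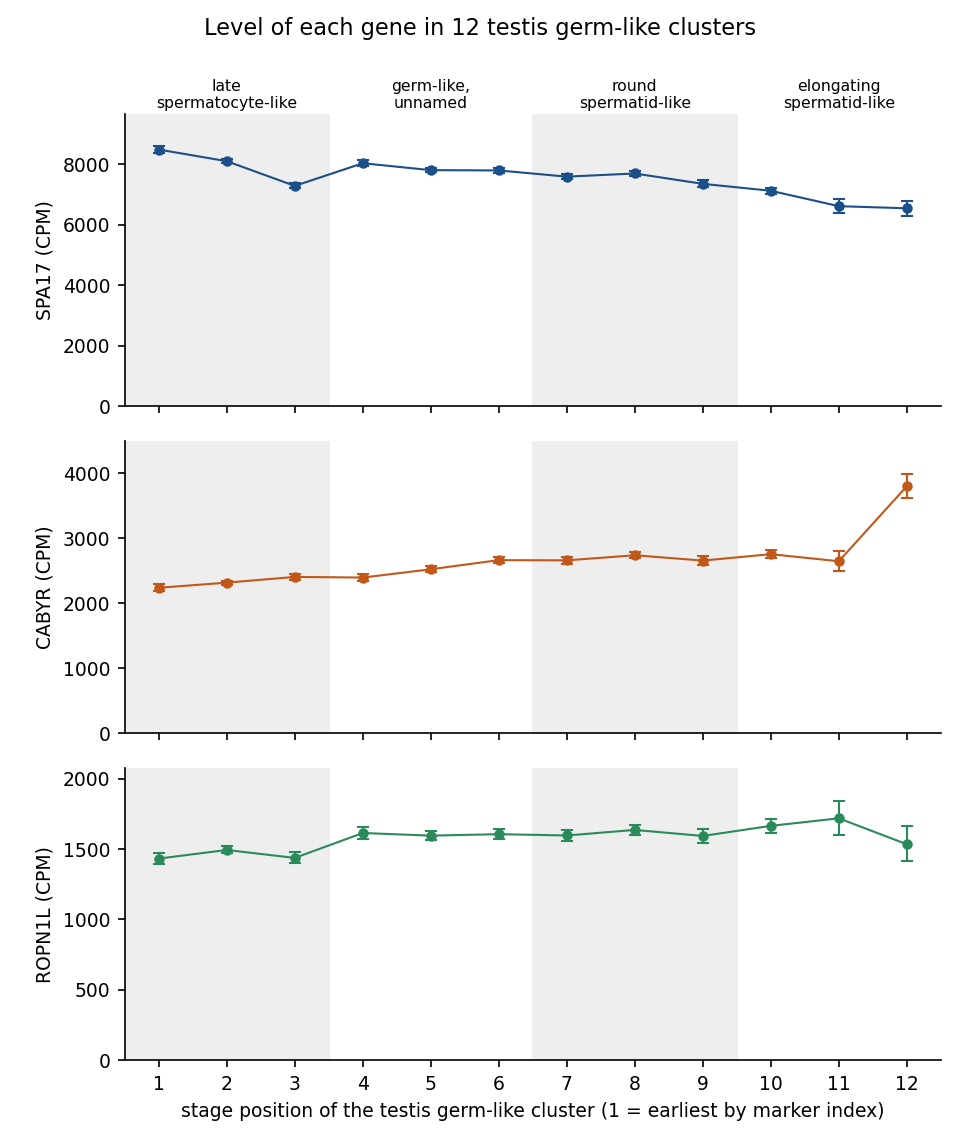
Level of SPA17, CABYR and ROPN1L (CPM, axes from 0) in 12 testis germ-like clusters in order of stage position, 1 point per cluster with its 95% Poisson interval. SPA17 is at 8489 at position 1 and 6545 at position 12, CABYR at 2236 and 3798 with its largest step at the end, and ROPN1L stays between 1433 and 1719.

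Over the 12 positions the highest level exceeded the lowest by 1.30-fold for SPA17, 1.70-fold for CABYR and 1.20-fold for ROPN1L. Over all 8528 features with at least 500 UMIs in these clusters the median range was 3.95-fold (with 10 CPM added to each level). A smaller range was found for 17 features in the case of SPA17 (0.199%), 373 for CABYR (4.37%) and 3 for ROPN1L (0.0352%). Among the 120 features that averaged at least 1000 CPM in these clusters, where counting noise adds little, the median range was 4.07-fold. Of those 120, 1 had a smaller range than SPA17, 12 had a smaller range than CABYR and 0 had a smaller range than ROPN1L. Without position 12 the median was 2.20-fold and the numbers were 2, 1 and 0.

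Set as whole classes, none of the 3 passed a 2-fold change between stages. Round spermatid-like over late spermatocyte-like cells, the ratio was 0.950 for SPA17 (0.941 to 0.958), 1.16 for CABYR (1.14 to 1.18) and 1.10 for ROPN1L (1.08 to 1.12). In the same comparison the whole interval lay beyond 2-fold upward for 29.4% of all 14088 features tested, and beyond 2-fold downward for 12.9%, and beyond 4-fold for 20.9% and 3.2%. Elongating over round spermatid-like cells, the ratio was 0.921 for SPA17 (0.908 to 0.935), 1.06 for CABYR (1.04 to 1.09) and 1.03 for ROPN1L (0.997 to 1.06), with 8.3% of features higher and 2.27% lower (3.79% and 0.0526% at 4-fold). The direction of ROPN1L there turned when each cell counted equally (log2 ratio -0.015 against 0.039).

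Most genes of the 5 pathway lists had larger ranges over the same cells, as had most of all features. Of 50 list genes with at least 500 UMIs there, 34 had a range above the median of all features, and 49 a range above that of CABYR. The exception was CATSPERG, a subunit of the sperm calcium channel, at 1.48-fold with 10 CPM added, named after its values were seen. By list, the range was above the median of all features for 6 of 8 genes of the RIIa and DPY30 domain family, 8 of 9 fibrous sheath genes, 5 of 8 other AKAPs, 7 of 12 protein kinase A and channel genes and 8 of 13 radial spoke genes. Of all 8528 features, 4.37% had a smaller range than CABYR, so 49 of 50 is near the share of all features. A median has as many features above it as below, and the last lists named lay near that. List genes were not matched to SPA17, CABYR and ROPN1L in level.

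ROPN1, the paralog of ROPN1L, had 38.2 CPM at position 1 and 871 at position 12, with a peak of 1124 at position 11 and a range of 29.4-fold. AKAP4, the main scaffold of the fibrous sheath, had 18.1 CPM at position 1 and 2715 at position 12, and AKAP3, named after its values were seen because it is the other scaffold, had 7.12 and 407. GAPDHS, the sperm form of a glycolytic enzyme that is bound to the fibrous sheath, had 12.3 CPM at position 1 and 2650 at position 12. CABYR had 2236 CPM at position 1 and 3798 at position 12, and SPA17 and ROPN1L were at position 1 nearer to their position 12 level. The transcripts of both scaffolds stood at position 1 at a small fraction of their position 12 level.

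The domain family had no common course. Of its 8 measured genes, 2 were highest in positions 1 to 3 and 2 in the last 3 positions, ROPN1 and PRKAR2A, against 39.5% and 30.3% of all features. PRKAR2A, a regulatory subunit of protein kinase A named after its values were seen, had 5.50 CPM at position 1 and 152 at position 12. DYDC1, a DPY30-domain protein, had its highest level at position 1 (782 CPM) and 64.9 CPM at position 12. PRKAR1A, another regulatory subunit of protein kinase A, had 496 CPM at position 1, 567 at position 4 and 54.9 at position 12. AK7, an adenylate kinase of cilia and sperm tails that carries a DPY30 domain, peaked at position 6 (600.1 CPM) and stood at 74.9 at position 12. Of the fibrous sheath list, FSIP2, a large fibrous sheath interacting protein, had 841 CPM at position 1, 961 at position 3 and 115 at position 12. TCP11, a testis protein needed for normal sperm swimming in mice, had 59.6 CPM at position 1 and 1090 at position 12.

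**Figure D2:**
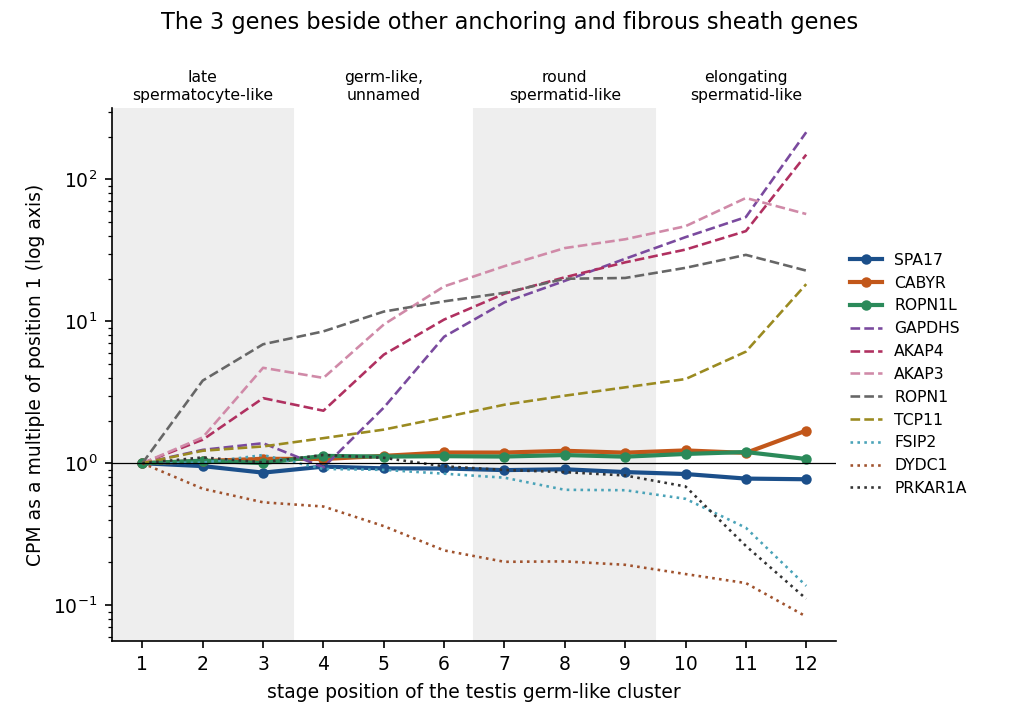
CPM at each stage position divided by CPM at position 1 (log axis) for SPA17, CABYR and ROPN1L (thick lines with points) and for 8 genes of the anchoring and fibrous sheath lists (dashed and dotted). The 3 genes end between 0.771 and 1.70 of their first value, while AKAP4 ends 150-fold above its own and DYDC1 at 0.083 of its own.

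By list, the round over late spermatocyte-like comparison called 8 fibrous sheath genes higher and 1 lower of 10 with enough UMIs (median log2 ratio 1.80), and 7 higher with TMM scaling, which centres the ratios on the bulk of features. These counts stand beside 29.4% higher and 12.9% lower of all features. The RIIa and DPY30 domain family, without the 3 genes, had 3 higher and 1 lower of 8 (median 0.44). Of 13 protein kinase A and sperm ion channel genes 5 were higher and 1 lower (median -0.17), of 13 radial spoke genes 1 was higher and 0 lower (median 0.34), and of 9 other AKAPs 1 was higher and 1 lower (median 0.48). Over all features tested the median was -0.054. The higher genes included the channel subunits CATSPER1, CATSPER3 and CATSPER4 (13.1-fold, 16.1-fold and 17.6-fold), named after their values were seen. Elongating over round spermatid-like cells, 3 of 10 fibrous sheath genes were higher and 0 lower, beside 8.3% and 2.27% of all features, among them AKAP4 (2.40-fold) and GAPDHS (3.29-fold). In that comparison 1 of 9 domain family genes, 1 of 9 other AKAPs, 1 of 14 radial spoke genes and 0 of 13 signalling genes were higher, and the radial spoke and signalling lists had 1 lower each.

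Between the round spermatid-like and late spermatocyte-like classes, 12 of 13 radial spoke genes were called neither higher nor lower. RSPH9, a spoke head protein, had 413 CPM at position 1, 768 at position 6 and 145 at position 12. RSPH1, another spoke head protein, had 328, 523 and 57.4 CPM at these positions, RSPH3, a spoke stalk protein that binds protein kinase A, 168, 345 and 49.9, and RSPH6A, a spoke head protein of sperm, 207, 223 and 110. All 4 were lower at position 12 than at position 1, as was SPA17 (0.771 of position 1). CABYR was higher there, and ROPN1L did not differ beyond counting error. Not every spoke gene fell: PPIL6 had 17.2 CPM at position 1 and 92.3 at position 12, and MORN3 0.648 and 205. Both were named after their values were seen. Of the signalling genes, the small channel subunit CATSPERZ had 1157 CPM at position 1 and 394 at position 12, the soluble adenylyl cyclase ADCY10 272 and 99.8, the channel CATSPER2 274 and 69.9, and the sodium-proton exchanger SLC9C1 352 and 37.4. Among other AKAPs, AKAP12, a scaffold that also binds protein kinase C, had 274 CPM at position 1 and 1337 at position 12. AKAP11 had 136 and 15.0, AKAP9, a Golgi and centrosome anchor, 27.2 and 9.98, and AKAP10, a mitochondrial anchor, 23.3 and 15.0.

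The counts per cell are a different measure, which moves with the UMIs each cell held in all. The median cell held 7704 UMIs at position 1, between 3917 and 5211 at positions 2 to 9, 5903 at position 10, 4462 at position 11 and 2789 at position 12, with no steady fall between. The median number of SPA17 UMIs per cell was 66 at position 1, 30 to 40.5 at positions 2 to 9, 41 at position 10, 28 at position 11 and 17 at position 12. For CABYR the medians were 17 at position 1, 9 at position 4, 16 at position 10 and 12 at position 12, and for ROPN1L 11, 6, 10 and 4. Position 12 thus had the fewest SPA17 and ROPN1L molecules per cell, and CABYR was not lowest there.

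The level also differed with depth inside some positions. With cells of a position split at their median depth, the deep over shallow ratio ran from 0.958 to 1.12 for SPA17, 0.907 to 1.08 for CABYR and 0.939 to 1.37 for ROPN1L. Of 12 positions, the deep cells were higher beyond counting error at 3 and lower at 1 for SPA17, higher at 0 and lower at 5 for CABYR, and higher at 3 and lower at 0 for ROPN1L. The largest of these ratios was that of ROPN1L at position 12, 1.37 (1.13 to 1.67), which is more than its whole range over positions. The part of depth in the stage levels was not tested.

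**Figure D3:**
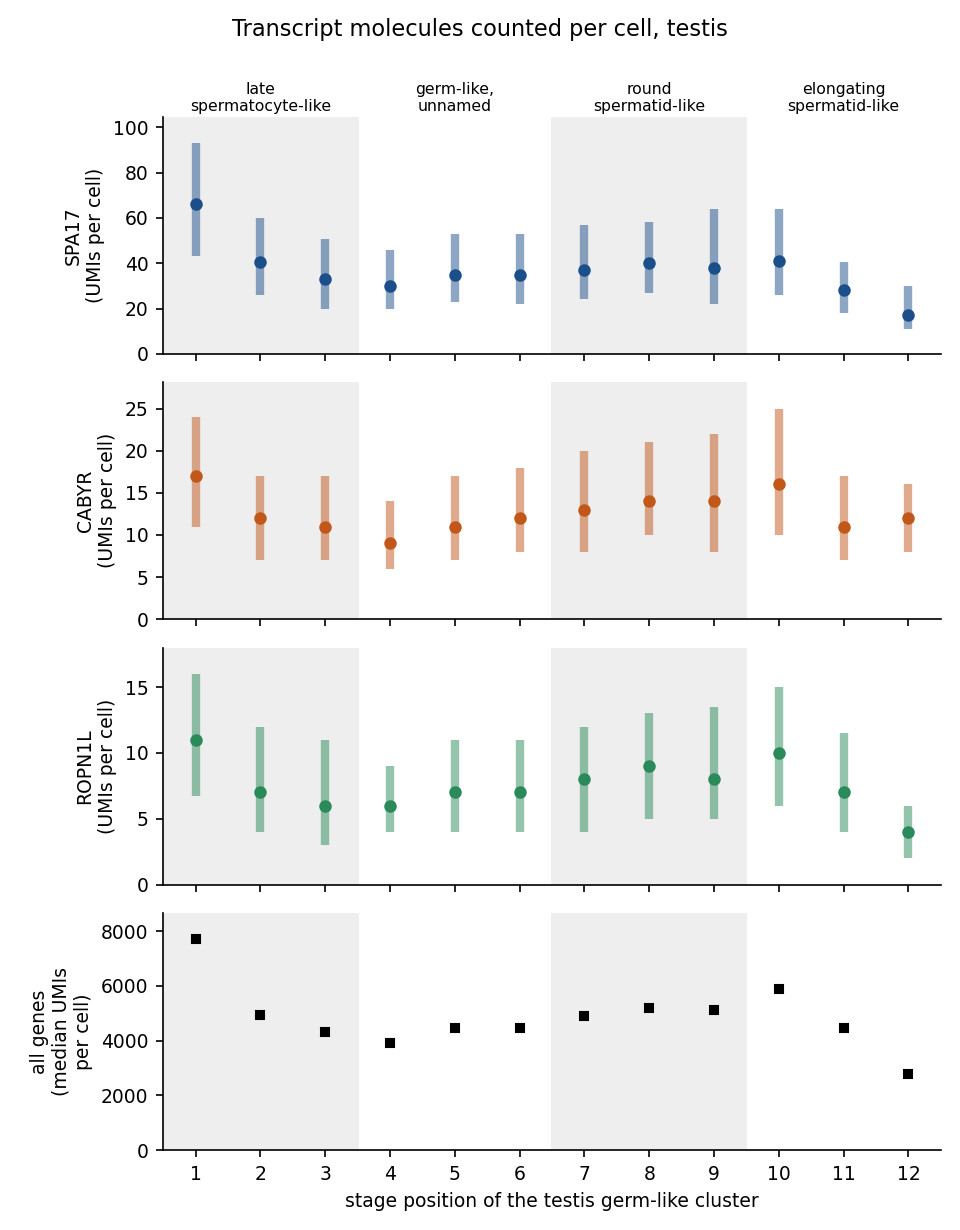
UMIs of SPA17, CABYR and ROPN1L per testis cell by stage position (points, medians; bars, quartiles; axes from 0), with the median UMIs per cell over all genes in the lowest panel. SPA17 medians are highest at position 1 (66) and lowest at position 12 (17), and so is the total, with 7704 and 2789, while position 10 (5903) stands above positions 2 to 9.

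Nearly every germ-like cell carried the genes. When each cell was thinned to 1000 UMIs, SPA17 was found in 99.8% of the 7912 testis germ-like cells (99.7 to 99.9%), CABYR in 91.7% (91.0 to 92.3%) and ROPN1L in 77.8% (76.8 to 78.7%). Without thinning the shares were 100%, 99.9% and 98.8% at a median of 4798.5 UMIs per cell. In 71.3% of the thinned cells all 3 were found together, in 26.7% there were 2, in 1.98% there was 1, and no cell had none. By position the share with all 3 ran from 67.5% at position 3 to 79.3% at position 11. At position 12 thinned cells held CABYR in 99.0% (93.1% with another random draw), SPA17 in 100% and ROPN1L in 70.3% (60.4 to 79.0%). In the 30 T or NK-like cells of testis, blood cells that should lack these genes, SPA17 was found in 46.7% or 80.0% of cells thinned to 1000 UMIs, under different random draws, at a median of 2211 UMIs before thinning.

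In these 30 testis T or NK-like cells the 3 genes stood at similar fractions of their germ-like level. SPA17 had 7769 CPM in germ-like cells against 1077 among the T or NK-like ones (77 UMIs), a ratio of 7.21 (5.77 to 9.14). CABYR had 2524 and 322 CPM, a ratio of 7.84 (5.23 to 12.4), and ROPN1L 1561 and 224, a ratio of 6.97 (4.29 to 12.2). All 3 genes thus lay beyond 2-fold higher in germ-like cells, where 4.55% of features were higher and 1.07% lower (15.5% and 0.892% with TMM scaling). They lay beyond 4-fold too, where 0.764% were higher and 0.947% lower. The T or NK-like cells held 71482 UMIs, so 1 UMI there is 14.0 CPM and a count of 0 allows up to 42.0 CPM. Features at a low level in germ-like cells could therefore not be called higher, though they count in these shares. With the 3 genes and the lists kept in the clustering, the log2 ratios were 1.98 for SPA17, 2.20 for CABYR and 1.78 for ROPN1L, in place of 2.85, 2.97 and 2.80, so that SPA17 and ROPN1L no longer lay beyond 4-fold. Of the lists, 4 of 8 domain family genes, 2 of 10 fibrous sheath genes, 1 of 1 other AKAP, 1 of 11 signalling genes and 3 of 13 radial spoke genes were higher and 0 lower. The T or NK-like levels were 13.9%, 12.7% and 14.3% of the germ-like ones, and germ markers as a list stood at 20.8% of their germ-like level there. Clusters of mixed lineages, which had somatic markers beside a high germ marker level, had SPA17 at 6848 CPM, CABYR at 2077 and ROPN1L at 1329. They also had 54.1 to 98.5% of the germ marker level of the germ-like clusters. The part of free RNA and doublets in these levels was not tested.

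The proportions of the 3 genes to each other shifted along the stages, with a smaller share of SPA17 and a larger one of CABYR in later cells. Of the UMIs of the 3 genes together, SPA17 had 69.8% at position 1 and 55.1% at position 12. CABYR had 18.4% and 32.0% there, and ROPN1L 11.8% and 12.9%. In T or NK-like cells of testis SPA17 had 66.4% (57.0 to 74.9%), which overlaps the 65.5% of all germ-like cells.

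Levels over the 12 clusters were also compared with those of 6755 other genes, as Pearson correlations of log2(CPM + 10), which describe 1 library and share its depth and composition. The genes closest to SPA17 were TSACC (r = 0.98), CAPNS1 (0.98), RPS28 (0.97), CHCHD7 (0.97) and ZFPL1 (0.97). Those closest to CABYR were PGP (0.98), PLEKHO1 (0.98), TTLL13 (0.98), CDKL3 (0.98) and RNF11 (0.98). Those closest to ROPN1L were CFAP276 (0.92), EHD1 (0.88), LRRC10B (0.88), TEKT1 (0.88) and UBE2B (0.88). Among the 3 genes r was -0.75 for SPA17 and CABYR, -0.40 for SPA17 and ROPN1L and 0.28 for CABYR and ROPN1L. With AKAP4, r was 0.89 for CABYR (rank 74 of 6755), 0.58 for ROPN1L and -0.86 for SPA17. With ROPN1 it was 0.66 for CABYR, 0.80 for ROPN1L (rank 145) and -0.76 for SPA17. CABYR and AKAP4 both had their largest step at position 12, a cluster of 101 cells, which all these r include. AKAP4 went from 785 to 2715 CPM in that step. Without that position CABYR ranged 1.23-fold, and the r of ROPN1L rest on a range of 1.20-fold.

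Across whole libraries the 3 genes were highest in testis and lowest in corpus. SPA17 had 7698 CPM in testis, 358 in caput and 14.5 in corpus. CABYR had 2496, 127 and 12.6 CPM, and ROPN1L 1545, 78.6 and 3.14. Testis over caput, the ratios were 21.5 for SPA17 (20.9 to 22.1), 19.7 for CABYR (18.7 to 20.6) and 19.7 for ROPN1L (18.5 to 20.9), all beyond 2-fold, where 18.9% of features were higher in testis and 54.2% lower (9.82% and 43.9% beyond 4-fold, which all 3 genes also passed). With TMM scaling 39.6% were higher and 34.1% lower. Caput over corpus, they were 24.7 for SPA17 (19.2 to 32.4), 10.1 for CABYR (7.67 to 13.6) and 25.03 for ROPN1L (14.6 to 47.2), where 7.03% of features were higher in caput and 1.77% lower (2.26% and 0.276% beyond 4-fold, which all 3 genes also passed). Of the lists, 6 of 10 domain family genes were higher in testis than in caput and 3 lower, 7 of 11 fibrous sheath genes higher and 1 lower, and 11 of 15 radial spoke genes higher and 1 lower. Of 14 signalling genes 8 were higher and 3 lower, and of 11 other AKAPs 0 were higher and 6 lower (with TMM, 5 and 3). Caput over corpus, 1 of 10 domain family genes, 2 of 10 fibrous sheath genes, 2 of 14 radial spoke genes, 3 of 12 signalling genes and 0 of 10 other AKAPs were higher, and 1 other AKAP was lower. In such sums fewer cells of a type and less RNA per cell cannot be told apart. The corpus values rest on 60, 52 and 13 UMIs.

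Most UMIs of the genes lay in germ-like clusters, also in caput. In testis these clusters held 95.1% of the SPA17, 95.3% of the CABYR and 95.2% of the ROPN1L UMIs. In caput, 2.97% of the cells held 66.0%, 65.9% and 70.5% of them. Without germ-like clusters, an alternative chosen after seeing the data, the caput over corpus log2 ratio of CABYR was 1.88 in place of 3.34, and those of SPA17 and ROPN1L 3.16 and 2.98 in place of 4.63 and 4.65. With the clusters led by very long genes left out, chosen likewise, the same ratio was 4.29 for CABYR and 6.06 for ROPN1L, and the testis over caput ratios lay between 3.66 and 3.78 in place of 4.30 and 4.43.

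Within caput, germ-like cells stood far above the rest. SPA17 had 3865 CPM in germ-like cells and 130 in other cells, a ratio of 29.8 (28.1 to 31.7). CABYR had 1370 and 46.1 CPM, a ratio of 29.7 (26.8 to 32.9), and ROPN1L 907 and 24.7, a ratio of 36.7 (32.1 to 42.1). With each cell weighted equally, the log2 ratios were 3.97 for SPA17, 4.26 for CABYR and 4.22 for ROPN1L, in place of 4.90, 4.89 and 5.20. In this comparison 9.85% of features were higher in germ-like cells and 14.6% lower (5.95% and 0.44% beyond 4-fold; 11.9% and 3.82% with TMM), and the 3 genes were among the higher at both thresholds. Some genes of the pathway lists were higher here too: GAPDHS by 47.8-fold, AKAP4 by 42.5-fold, CATSPERZ by 40.3-fold, DYDC1 by 26.5-fold and RSPH9 by 19.0-fold. By list, 4 of 6 fibrous sheath genes, 4 of 9 of the domain family, 8 of 11 radial spoke genes, 5 of 10 protein kinase A and channel genes and 2 of 11 other AKAPs were higher. The lower ones were PRKAR2B, a regulatory subunit of protein kinase A, PDE4D, which degrades cAMP, and AKAP6, 1 in each of 3 lists. With TMM AKAP6 was no longer lower.

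The 2 germ-like clusters of caput differed from their testis counterparts in unequal measure, in a comparison chosen after seeing the data. The 147 caput cells of several stages had 4708 CPM of SPA17, 1560 of CABYR and 1105 of ROPN1L, which is 0.606 (0.584 to 0.629), 0.618 (0.579 to 0.659) and 0.708 (0.656 to 0.764) of the testis germ-like level. None lay beyond 2-fold, where 1.35% of features were higher in caput and 1.77% lower. With TMM 2 of the 3 lay beyond 2-fold lower, where 0.811% were higher and 8.04% lower. The 134 elongating spermatid-like cells of caput had 1263 CPM of SPA17, 781 of CABYR and 294 of ROPN1L, against 6988, 2863 and 1657 in testis. These are 0.181 (0.159 to 0.205), 0.273 (0.231 to 0.320) and 0.178 (0.135 to 0.230) of the testis level, all beyond 2-fold lower, where 4.34% of features were higher in caput and 20.4% lower. The median log2 ratio over all features tested was -1.22, and with TMM scaling, which shifts every log2 ratio here by -1.39, 2.48% of features were higher and 66.5% lower.

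Genes of the pathway lists in the elongating cells of caput fell into some at or above the testis class in CPM and many below it. AKAP4 had 1715 CPM in caput and 863 in testis, GAPDHS 1025 and 767, TCP11 512 and 353, and AKAP12 812 and 331. With TMM scaling all 4 turned to values below testis. The testis class is mostly position 10 (373 of 561 cells), and at position 12, the last in stage, testis had 2715 CPM of AKAP4, 2650 of GAPDHS, 1090 of TCP11 and 1337 of AKAP12, all above caput. ROPN1 had 167 CPM in caput and 934 in testis, a ratio of 0.179, close to that of ROPN1L. AK7 had a ratio of 0.178 and FSIP2 0.275. AKAP3 had 71.0 CPM in caput and 368 in testis, so the 2 scaffolds stood apart. Of 11 radial spoke genes 8 were lower and 0 higher (median log2 ratio -3.06), with RSPH9 at 0.064 of its testis level. Of all features 20.4% were lower and 4.34% higher. With TMM 10 of the 11 spoke genes were lower, beside 66.5% of all features. The domain family had 5 lower and 1 higher of 8, and the fibrous sheath list 2 and 0 of 7. Signalling genes had 3 lower and 1 higher of 9, and other AKAPs 0 and 2 of 4. These ratios are against the whole testis class. Between positions 10 and 12 of testis AK7 fell from 395 to 74.9 CPM, FSIP2 from 472 to 115 and RSPH9 from 652 to 145. ROPN1 had 911 and 871 CPM there and AKAP3 334 and 407. The part of stage in these ratios was not tested. PRKAR2B had 1902 CPM in these caput cells and 144 in testis, and it had 3125 CPM in caput cells that were not germ-like. These caput cells stood late in the marker index, at 4.91, against 5.83 for position 12 and 1.54 for position 10 of testis. The 3 genes had 6545, 3798 and 1535 CPM at position 12, which is also above caput. SPA17 had 54.0% of the UMIs of the 3 genes in them (49.3 to 58.6%) and CABYR 33.4% (29.1 to 37.9%), against 55.1% and 32.0% at position 12. The cells had a median of 1244 UMIs, and after thinning to 300 UMIs SPA17 was found in 30.6% (22.9 to 39.1%; 20.9% with another random draw), CABYR in 16.4% and ROPN1L in 4.48%, against 85.1%, 67.3% and 36.6% at position 12.

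**Figure D4:**
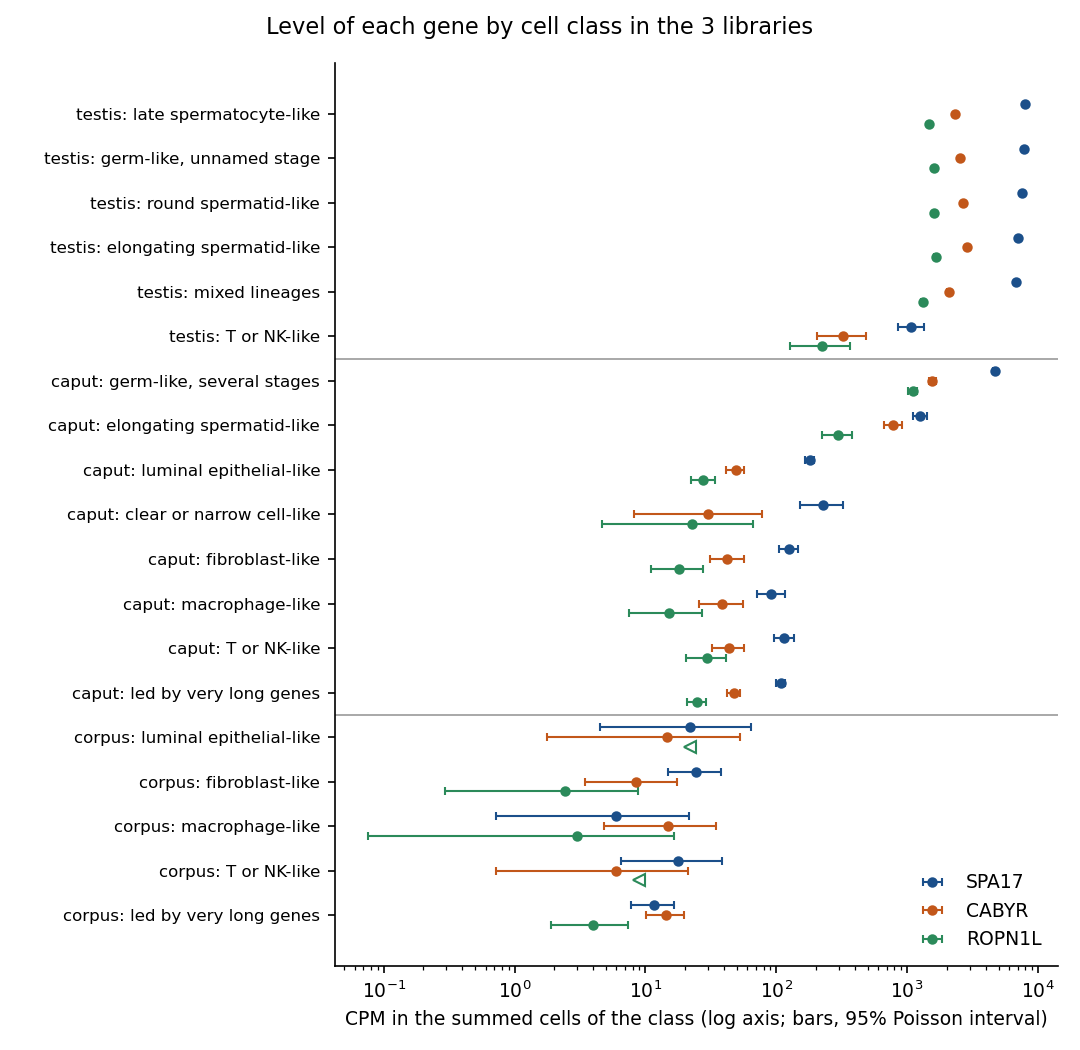
Level of SPA17, CABYR and ROPN1L (CPM, log axis) in the summed cells of each class in testis, caput and corpus, with 95% Poisson intervals; open triangles mark the limit of 3 counts where a class had 0 UMIs. Germ-like classes of testis lie between 1469 and 7987 CPM, caput somatic classes between 15.1 and 227, and corpus classes at or under 24.4.

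In somatic cells of caput all 3 genes were present at a low level in every named class. SPA17 had 227 CPM in clear or narrow cell-like cells (153 to 324, 30 UMIs), which acidify the duct, and 180 in luminal epithelial-like cells (166 to 195), which line it. Fibroblast-like cells followed with 125 CPM (105 to 148), T or NK-like cells with 114 (95.6 to 136) and macrophage-like cells with 91.7 (71.1 to 117). The intervals of the last 3 overlap each other, and that of clear or narrow cells overlaps that of luminal cells. CABYR had 48.9 CPM in luminal cells, 43.3 in T or NK-like, 42.3 in fibroblast-like cells, 38.3 in macrophage-like cells and 30.2 in clear or narrow cells, with overlapping intervals throughout. ROPN1L ran from 15.1 CPM among the macrophage-like cells up to 29.4 for T or NK-like ones, again with overlap. In clear or narrow cells CABYR rests on 4 UMIs and ROPN1L on 3 (22.7 CPM). A count of 0 there allows up to 22.7 CPM.

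In CPM, only SPA17 of the 3 genes differed between luminal and other somatic cells by more than counting error, which depends on the scaling. Luminal over other named somatic cells, a comparison chosen after seeing the data, the ratio was 1.53 for SPA17 (1.34 to 1.75), 1.19 for CABYR (0.935 to 1.51) and 1.27 for ROPN1L (0.919 to 1.77). None of the 3 lay beyond 2-fold, where 3.97% of features were higher in luminal cells and 10.3% lower (6.87% and 7.67% with TMM). TMM scaling shifts every log2 ratio here up by 0.347. The lower interval ends of CABYR and ROPN1L were -0.096 and -0.122 as log2 ratios. With TMM both genes thus also exceed counting error, still within 2-fold. Among the 4 luminal clusters SPA17 was highest in the largest, with 213 CPM (191 to 237), and stood at 153, 147 and 137 in the others. SPA17 had 70.1% of the UMIs of the 3 genes in luminal cells (66.9 to 73.2%) and 81.1% in clear or narrow cells (64.8 to 92.0%, of 37 UMIs), against 62.9% in germ-like cells of caput (61.6 to 64.3%). Those germ-like cells pool 63.8% in cells of several stages and 54.0% in elongating spermatid-like cells. In testis late spermatocyte-like cells the share was 67.8%, inside the luminal and the clear or narrow interval. The proportions in fibroblast-like, macrophage-like and T or NK-like cells, 67.5%, 63.2% and 61.1%, overlap the 62.9% of caput germ-like cells within counting error.

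**Figure D5:**
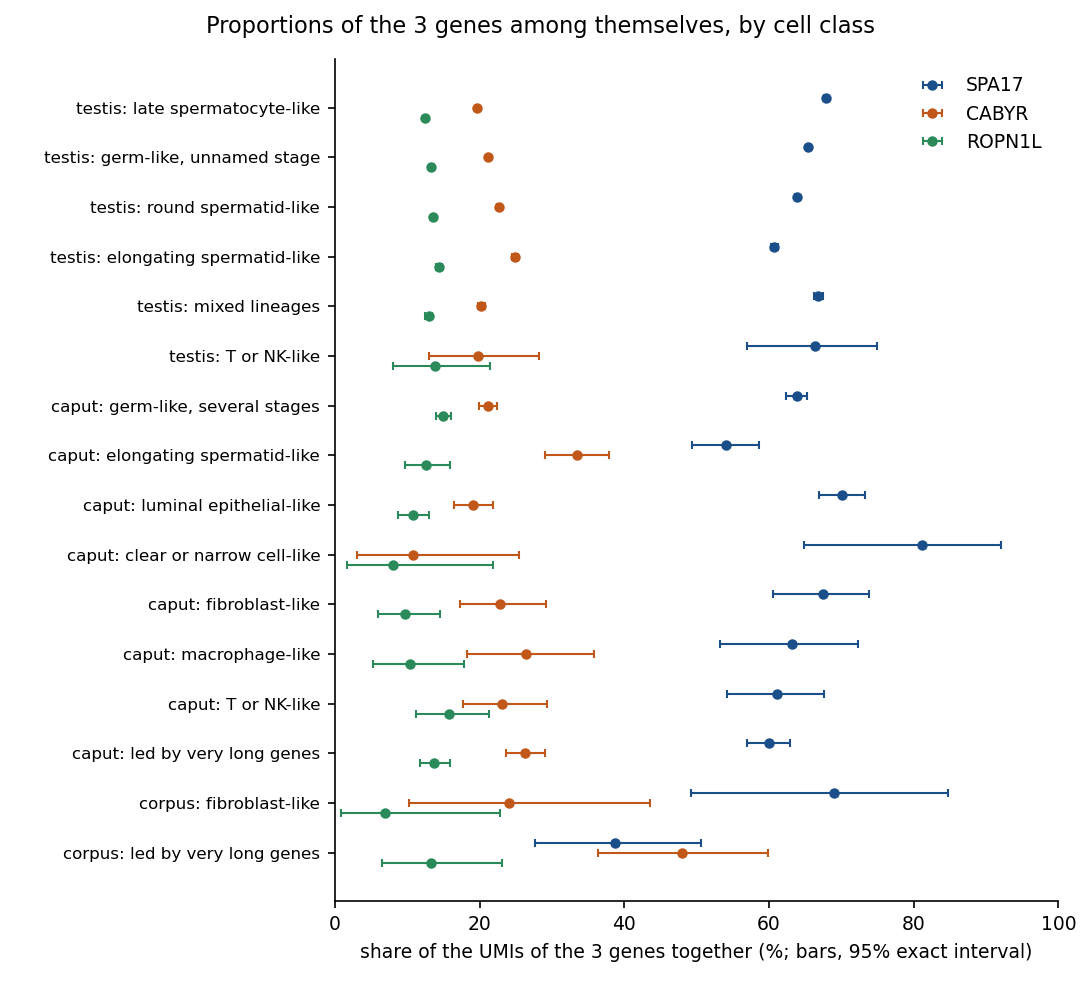
Share of SPA17, CABYR and ROPN1L in the UMIs of the 3 genes together (%), by cell class with at least 20 such UMIs, with exact 95% intervals. The share of SPA17 is 70.1% in luminal and 54.0% in elongating spermatid-like cells of caput, and CABYR reaches 48.0% in the corpus cluster led by very long genes.

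The somatic levels were set beside those of 32 other germ markers in the same classes. In luminal cells the markers stood at a median of 4.47% of their caput germ-like level, and SPA17 stood at 4.65%, CABYR at 3.57% and ROPN1L at 3.05%. In T or NK-like cells, which should lack all of them, the median was 3.79%, with 2.96%, 3.16% and 3.25% for the 3 genes. In clear or narrow cells the median was 2.35% and SPA17 stood at 5.86%, above 23 of the 32 markers. CABYR stood at 2.21% there from 4 UMIs and ROPN1L at 2.50% from 3 UMIs. In cells thinned to 300 UMIs, SPA17 was found in 5.73% of luminal cells (4.83 to 6.75%), 3.72% of T or NK-like cells (2.54 to 5.24%) and 3.53% of fibroblast-like cells (2.32 to 5.13%), from median depths of 1162.5, 1191 and 1248 UMIs. Unthinned, these shares were 20.6%, 13.2% and 15.1%. The part of free RNA and doublets in the somatic levels was not tested.

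Multiciliated cells, which use radial spoke proteins, were looked for as another source. No cluster was named multiciliated in any library. The 13 markers of such cells summed to 131 CPM in luminal cells of caput, with 1 of 13 at 0, to 151 in T or NK-like cells with 0 at 0, and to 563 in the germ-like cells of several stages with 2 at 0. In the clusters led by very long genes they summed to 275 CPM in caput with 1 at 0, and to 280 in corpus with 2 at 0. FOXJ1, their defining transcription factor, had 23 UMIs in the whole caput library and 5 in corpus, and CCDC78 had 1 and 2. The most UMIs were those of CDC20B, with 1239 in caput and 469 in corpus, and DEUP1, with 793 and 208, both named after their values were seen. In testis CDC20B had 1168 UMIs and DEUP1 16264. The 13 markers summed to 1184 CPM in round and 1226 in elongating spermatid-like cells of testis, so the list is not particular to multiciliated cells here. The part of multiciliated cells in the somatic levels was not tested.

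In corpus the genes were at the edge of detection. SPA17 had 24.4 CPM in fibroblast-like cells (20 UMIs, 14.9 to 37.6), 21.8 in luminal epithelial-like cells (3 UMIs), 17.7 in T or NK-like (6 UMIs), 11.6 in the cluster led by very long genes (29 UMIs) and 5.96 in macrophage-like cells (2 UMIs). CABYR had 36 of its 52 UMIs in the cluster led by very long genes (14.3 CPM, 10.05 to 19.9) and 2 in luminal cells. ROPN1L had 10 of its 13 UMIs in that cluster and 0 in luminal and in T or NK-like cells, which allows up to 21.8 and 8.86 CPM there. In that cluster CABYR had 48.0% of the UMIs of the 3 genes (36.3 to 59.8%), against 26.3% in the corresponding cluster of caput (23.7 to 29.0%) and 21.3% in testis germ-like cells. Over the whole corpus SPA17 had 48.0% (39.0 to 57.1%).

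The identity of the counted reads has limits that the files cannot settle. SIAE, the next gene after SPA17 in the RefSeq order, had 63.5 CPM in testis germ-like cells, and NRGN, the gene before it, 0.428. The neighbours of CABYR, LOC106822896 and TTC39C, had 19.1 and 2.26 CPM, and those of ROPN1L, ANKRD33B and MARCHF6, 4.47 and 69.4. In the whole corpus library at least 1 neighbour of each gene stood above the gene itself. LOC106822896 and TTC39C had 71.9 and 64.7 CPM there, ANKRD33B and MARCHF6 31.1 and 84.0, and SIAE 19.1, while NRGN had 1.21. In the whole caput library LOC106822896 and TTC39C had 68.2 and 53.0 CPM, ANKRD33B and MARCHF6 23.8 and 74.0, and SIAE and NRGN 24.9 and 3.33. In caput cells that were not germ-like CABYR had 46.1 CPM, ROPN1L 24.7 and SPA17 130. Whether counting used strand, and where reads shared by ROPN1L and ROPN1 went, the files and labels do not say.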

How the data were processed

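The authors deposited UMI counts per feature and barcode, whole numbers that are not normalized, which PISA 0.12 wrote per the file headers. Cell Ranger 2.1.1 is in the submitters' processing notes, with no role given. The genome build and the aligner were not stated in the sources read. The members, lists and comparisons were chosen with earlier results of these data known. Named list genes were the 4 of each of 5 lists with the most UMIs in testis germ-like cells, and 5 genes per member with the most similar levels. Locus identifiers were matched to RefSeq names (749 of 18266 got a symbol). LDHC, PRKACG and the older symbol SLO3 matched no feature.

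Barcodes under 200 genes were dropped (0 in testis and caput, 2 in corpus). A doublet score made like that of Scrublet removed 82 testis barcodes (0.952%). It marked 1 in caput and 0 in corpus, so there doublet calling did not work. Clustering per library used log counts per 10000, 2000 variable genes, 30 components, 15 neighbours and the Leiden method at resolution 1.0 (leidenalg 0.10.2 with igraph 0.11.9, numpy 2.4.6, scipy 1.17.1, scikit-learn 1.9.0). A class needed at least 3 markers and 20% of those measured, each at least 2-fold above the median cluster; these thresholds were set after the clusters were seen, and the names depend on this rebuilt clustering. Intervals are 95% and for counting error only: exact Poisson for CPM, which is from summed counts, Clopper-Pearson for a share and conditional binomial for a ratio. Comparisons of caput germ-like with testis germ-like classes and of luminal with other somatic cells were added after the data were seen. A feature was called where the whole ratio interval lay beyond 2-fold and the higher side had at least 50 UMIs. A count of 0 allows up to 3 counts. On simulated data 98 to 100% of features changed 4-fold were recovered in the 6 comparisons simulated; the 3 added ones were not simulated. Alternatives changed cell filters, doublet scores, scaling, variable genes, resolution, thinning and thresholds.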

Additional observations from a re-analysis of the deposited data

How the results depend on the processing

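No paired analysis was possible because each group holds 1 library, and for the same reason no replicate could be left out. Values here are log2 ratios unless stated, 0 of them reversed a called direction, and the cause of each move was not tested unless the setting itself gives it. TMM scaling shifts every feature alike, by -0.027 for round over late spermatocyte-like, -0.012 for elongating over round, 1.11 for germ-like over other named cells of testis, 0.48 for germ-like over other cells of caput, 1.84 for testis over caput and 0.17 for caput over corpus. With it SPA17 stood at -0.10 and CABYR at 0.19 in round over late spermatocyte-like. SPA17, CABYR and ROPN1L stood at 3.96, 4.08 and 3.91 in germ-like over other named cells of testis, 5.38, 5.38 and 5.68 in germ-like over other cells of caput, and 6.26, 6.14 and 6.13 in testis over caput. With each cell weighted equally, elongating over round gave -0.16 for SPA17 and -0.015 for ROPN1L (0.039 as reported), and germ-like over other cells of caput gave 3.97, 4.26 and 4.22 for SPA17, CABYR and ROPN1L, against 4.90, 4.89 and 5.20. Raising the gene minimum to 500, which left 10.5% of corpus cells, gave 4.22 for SPA17 and 3.71 for ROPN1L in caput over corpus. Without the 5% highest doublet scores, round over late spermatocyte-like gave -0.11 for SPA17 and 0.25 for CABYR, and testis over caput 4.35 for SPA17. Round over late spermatocyte-like gave -0.11 and 0.24 with 4000 variable genes, -0.088 for SPA17 at resolution 2.0, and -0.099 and 0.25 with the members kept among the variable genes. The last setting also named 19 macrophage-like cells in testis, and germ-like over other named cells then gave 1.98 for SPA17, 2.20 for CABYR and 1.78 for ROPN1L, against 2.85, 2.97 and 2.80, with SPA17 and ROPN1L then under 4-fold. The late spermatocyte-like class held 2695 cells as reported, 1468 without the 5% highest doublet scores and 1779 with 4000 variable genes. It held 2217 at resolution 2.0 and 1707 with the members kept. Testis cells led by very long genes numbered 123 as reported, and 466, 588, 273 and 489 in the same order of settings. Of the alternatives chosen after seeing the data, leaving out clusters led by very long genes gave 3.78, 3.70 and 3.66 for the 3 genes in testis over caput, and 4.29 for CABYR and 6.06 for ROPN1L in caput over corpus. Leaving out germ-like clusters gave 3.16, 1.88 and 2.98 there, and luminal cells as the other cells of caput gave 4.43 for SPA17. With a 4-fold threshold, list genes called in either direction numbered 10 for round over late spermatocyte-like (22 at 2-fold), 3 for elongating over round (8), 0 for germ-like over other named cells of testis (11), 16 for germ-like cells of caput (26) and 3 for caput over corpus (9). At 4-fold, 20.9% of all features were higher and 3.2% lower for round over late spermatocyte-like, and 3.79% and 0.0526% for elongating over round. For germ-like over other named cells of testis the shares were 0.764% and 0.947%. They were 5.95% and 0.44% for germ-like cells of caput, and 2.26% and 0.276% for caput over corpus. Unthinned, 100%, 99.9% and 98.8% of testis germ-like cells held SPA17, CABYR and ROPN1L. Depth limits corpus most, where the genes had 60, 52 and 13 UMIs, little above or well below the 50 that a call needs on the higher side.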
